A study of Mus musculus with 2 samples.

Results

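Barcodes that held Myog together with the transcripts of dividing cells were examined in 2 libraries of induced myogenic progenitor cells (iMPCs). These barcodes, called cycling Myog-high, were chosen by 3 measured values per 10000 UMIs (unique molecular identifiers, that is counted RNA molecules): Myog of at least 10, Acta1 under 25, and a sum of at least 10 over Mki67, Top2a, Cenpf, Ube2c, Tpx2, Birc5 and Cdk1. The rule selected 221 of 3962 kept barcodes in the F/R/C library (5.58%, exact 95% interval 4.88 to 6.34) and 258 of 10834 in the F/R/C+CP library (2.38%, 2.10 to 2.69). Since these values chose the members, the levels of the genes in the rule, and every contrast with a class cut from the same values, are given as a description with no test.

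Both libraries came from mouse embryonic fibroblasts of the genotype Tg:Pax7-nGFP/C57BL6;DBA2, which carry a nuclear green fluorescent reporter of Pax7, and each was made from 1 clone after 4 transfections with synthetic MyoD-mRNA in medium with B18R, a decoy receptor for type I interferon. One clone was derived and kept in Forskolin, RepSox and CHIR (F/R/C), which raise cyclic AMP, block the TGF-β receptor and activate Wnt signalling. The other was derived and kept in the same molecules with CP, an inhibitor of JAK kinases (F/R/C+CP). Large muscle fibers were strained out before loading. Library, clone and treatment therefore cannot be told apart here, and since each group is 1 library, differences between the groups have no replicate check. All intervals below cover counting error only.

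Myogenin, the product of Myog, is a transcription factor that myoblasts switch on when they commit to differentiation. In the textbook order, Myog appears first, then the cyclin-dependent kinase (CDK) inhibitors rise and the cell leaves the cycle for good, then contractile proteins are made and cells fuse. Genes for mitosis are shut down on exit by the retinoblastoma and DREAM complexes, which act on their promoters through E2F sites and cell cycle genes homology regions (CHR).

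Promoters of genes that mark the state are shown because the mitotic and the replication genes described below differ in these elements. Sequences are from RefSeq on GRCm38.p6 and run from 250 bases before the annotated start to 50 bases after it, 5′ to 3′. Capitals mark every match, on either strand, to the CHR element TTTGAA, the CCAAT box CCAAT, the E2F-type motifs TTCCCGC or TTGGCGC and the muscle E-box CAGCTG, and matches may overlap. Mki67 belongs to the rule, Cdc20 and Plk1 to the list of G2 and mitosis genes, and Cdk2 was higher in the members than in both neighbouring classes.
Mki67 (chr7:135716330-135716629, minus strand): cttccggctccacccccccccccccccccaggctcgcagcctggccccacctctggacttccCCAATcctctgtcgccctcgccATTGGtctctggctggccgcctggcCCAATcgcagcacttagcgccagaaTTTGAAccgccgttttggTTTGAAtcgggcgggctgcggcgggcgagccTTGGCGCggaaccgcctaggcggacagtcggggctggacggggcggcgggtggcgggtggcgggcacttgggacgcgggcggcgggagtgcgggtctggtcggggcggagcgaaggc
Cdc20 (chr4:118437294-118437593, minus strand): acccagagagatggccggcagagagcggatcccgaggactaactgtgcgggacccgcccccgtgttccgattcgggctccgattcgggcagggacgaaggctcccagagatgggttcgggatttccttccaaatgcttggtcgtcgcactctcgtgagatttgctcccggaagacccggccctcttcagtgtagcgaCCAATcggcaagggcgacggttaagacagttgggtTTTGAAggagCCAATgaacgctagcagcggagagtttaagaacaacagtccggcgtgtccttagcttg
Plk1 (chr7:122159185-122159484, plus strand): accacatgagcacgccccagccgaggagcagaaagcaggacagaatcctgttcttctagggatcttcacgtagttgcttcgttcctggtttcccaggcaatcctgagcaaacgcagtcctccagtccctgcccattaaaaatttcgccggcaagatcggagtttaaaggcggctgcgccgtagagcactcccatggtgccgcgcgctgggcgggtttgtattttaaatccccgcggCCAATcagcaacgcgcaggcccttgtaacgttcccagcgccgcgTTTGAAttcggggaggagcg
Cdk2 (chr10:128705002-128705301, minus strand): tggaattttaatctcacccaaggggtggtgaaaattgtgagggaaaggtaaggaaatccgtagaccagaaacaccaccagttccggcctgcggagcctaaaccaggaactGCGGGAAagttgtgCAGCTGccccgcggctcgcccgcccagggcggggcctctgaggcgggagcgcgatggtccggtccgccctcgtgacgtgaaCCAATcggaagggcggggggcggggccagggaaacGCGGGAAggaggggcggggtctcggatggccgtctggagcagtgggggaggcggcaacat
The CHR element was found in 28 of the 41 matched promoters of the G2 and mitosis list (68.3%), in 3 of 30 of the DNA replication list and in 3 of 35 of the sarcomere list, against 18.1% of all 27025 promoters. An E2F-type motif was found in 14 of 30 replication promoters (46.7%) and in 3 of 41 mitosis promoters, against 6.93% of all. CAGCTG was found in 13 of 35 sarcomere promoters (37.1%), against 16.1% of all. Of the 6 matched promoters of the rule's cycling genes, 5 held a CHR element. A match describes these letters in this window and is not evidence of a bound factor.

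In all, 5541 barcodes with 36999292 UMIs were deposited for F/R/C, against 12000 with 313078984 UMIs for F/R/C+CP, with a lowest UMI count of 12097 in the latter and 500 in the former. The libraries shared 18 barcode sequences. Kept barcodes had medians of 7112 and 21844.5 UMIs. The deeper library therefore lacked shallow barcodes, and 21 of the 221 F/R/C members, but 0 of the 258 F/R/C+CP members, rested on under 3 UMIs of Myog or of the cycling genes.

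The members carried the markers that name them. A member held a median of 16 Myog UMIs and 19 UMIs of the cycling genes in F/R/C, and 43 and 84 with F/R/C+CP. At least 3 of the 7 cycling genes were detected in 195 of 221 and in 258 of 258 members, and all 7 in 96 and 220. Mki67, a chromosome-coat protein of dividing cells, stood at 272 CPM (counts per 1000000 UMIs summed over the class) and 253 CPM. Top2a, which untangles DNA before mitosis, stood at 757 and 1000 CPM. The rule's limits cut through continuous values. Members with a cycling sum of 10 to under 12 per 10000 numbered 20 and 22, with 1093 and 1082 CPM of the 7 genes, and 20 and 41 Myog-high barcodes just outside, at 8 to under 10, had 936 and 907 CPM. Members with Myog of 10 to under 12 numbered 21 and 61, and 19 and 71 barcodes lay just outside at 8 to under 10, with Myog at 889 and 902 CPM and the 7 cycling genes at 3540 and 2693 CPM. The Acta1 limit left out 21 and 18 barcodes that met the other limits.

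Cycling barcodes made up a larger part of the Myog-high, Acta1-low barcodes in F/R/C iMPCs. They were 221 of 652 (33.9%, 30.3 to 37.7) there and 258 of 1510 (17.1%, 15.2 to 19.1) with F/R/C+CP. The barcodes with a sum under 5, called quiet Myog-high, numbered 383 and 1133, and 48 and 119 lay between. With every barcode thinned to 4000 UMIs, and 632 shallower F/R/C barcodes left out, the shares were 34.0% (201 of 592, 30.1 to 37.9) and 19.9% (310 of 1557, 18.0 to 22.0).

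The share of cycling barcodes was highest at a Myog level over 0 and under 2 per 10000 in both libraries and lower above it. The intervals of the libraries lay apart at 10 to under 20 and at 20 to under 40, and overlapped at 40 and over. In F/R/C iMPCs the share was 49.6% (47.4 to 51.7) of Acta1-low barcodes without a Myog UMI. It was 55.4% (49.4 to 61.2) at a level over 0 and under 2 per 10000, an interval that overlaps the first. It was 45.6% at 2 to under 5 and 32.3% at 5 to under 10. Above the rule's limit it held at 36.3% (31.0 to 41.8) at 10 to under 20, 31.9% (26.7 to 37.5) at 20 to under 40 and 28.6% (8 of 28, 13.2 to 48.7) at 40 and over, which are not separated by their intervals. Under F/R/C+CP the share was 42.4%, 51.1%, 35.3% and 32.9% in the first 4 bins. It was then 21.0% (18.5 to 23.6) at 10 to under 20, 9.94% (7.49 to 12.9) at 20 to under 40 and 0 of 10 barcodes at 40 and over, which allows up to 30.8%. Cdkn1c, the CDK inhibitor p57, went from 1995 CPM in the first bin to 6424 CPM in the last, and from 1700 to 11691 CPM. Barcodes without a Myog UMI were shallower than those at over 0 and under 2. Their medians were 6698 and 8110 UMIs in F/R/C, and 18331 and 20577.5 UMIs with F/R/C+CP. The part of depth in the cycling shares of these bins was not tested.

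**Figure D1:**
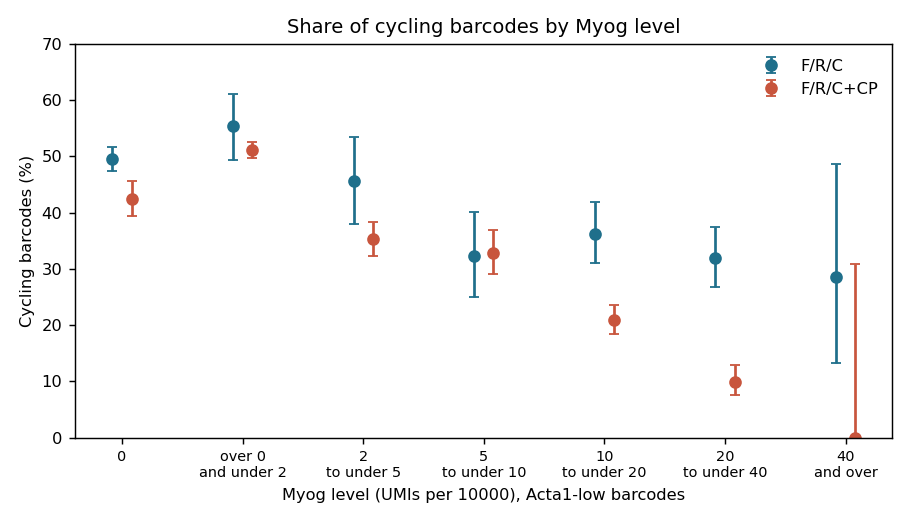
Percentage of Acta1-low kept barcodes whose summed cycling genes reached 10 per 10000 UMIs (y axis) by Myog level in UMIs per 10000 (x axis), with exact 95% counting intervals, for both libraries. The intervals of the libraries overlap in the 3 bins from over 0 to under 10 (32.3% and 32.9% at 5 to under 10) and at 40 and over (28.6% and 0), and lie apart without a Myog UMI (49.6% and 42.4%), at 10 to under 20 (36.3% and 21.0%) and at 20 to under 40 (31.9% and 9.94%).

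Transcripts of mitosis were at the level of cycling progenitors. Cycling Myog-low barcodes, with Myog under 2 per 10000 and the same cycling sum of at least 10, served as that reference (1206 and 2838 barcodes). The 48 genes of the G2 and mitosis list, none of them in the rule, summed to 6198 CPM in the F/R/C members, 477 CPM in quiet Myog-high and 6500 CPM in cycling Myog-low barcodes. For F/R/C+CP the sums were 6035, 497 and 6111 CPM. The members thus stood close to the cycling progenitors and more than an order of magnitude above the quiet cells. Against quiet Myog-high barcodes, 47 of 47 measured genes of the list were at least 2-fold higher in F/R/C and 46 of 46 with F/R/C+CP (median log2 ratio 4.42 and 4.44), where 7.63% and 6.56% of all measured genes were 2-fold higher (all-gene medians 0.08 and 0.05). The list belongs to the contrast on which the rule cut, so this count is not independent of the choice of members. Against cycling Myog-low barcodes, 0 of 48 and 0 of 47 genes passed 2-fold in either direction (median -0.17 and -0.06).

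Cyclins, kinases and spindle genes followed this pattern one by one. Ccnb1, the cyclin that drives entry into mitosis, was at 168 CPM (149 to 188) in the F/R/C members, 6.25 CPM in quiet Myog-high and 147 CPM in cycling Myog-low barcodes, and at 161 (152 to 170), 7.29 and 144 CPM with F/R/C+CP. Ccna2, the S-phase and G2 cyclin, was at 132 and 100 CPM in members, against 3.82 and 3.59 CPM in quiet cells. Its members' level exceeded that of cycling Myog-low barcodes (102 and 75.6 CPM) by log2 ratios of 0.37 (0.16 to 0.58) and 0.41 (0.30 to 0.52). Cdc20, the activator of the anaphase-promoting complex whose promoter is shown above, was at 168 and 116 CPM in members against 6.25 and 6.93 CPM in quiet cells. Plk1, a mitotic kinase, was at 77.3 and 94.6 CPM against 1.39 and 3.22 CPM. Genes outside the rule with the largest ratio over quiet cells in both libraries were Esco2, which acetylates cohesin in S phase, the spindle motors Kif11, Kif18b and Kif23, the kinase Aurkb, the spindle protein Nusap1, the kinetochore genes Ndc80 and Ska1, and Depdc1a and Cdca2. Of these, Kif11 had log2 ratios of 5.87 (5.02 to 6.89) and 5.71 (5.29 to 6.16).

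Replication transcripts were also present, at a somewhat lower level than in the cycling progenitors. The DNA replication list summed to 2853 CPM in the F/R/C members, 887 CPM in quiet Myog-high and 3269 CPM in cycling Myog-low barcodes, and to 2481, 547 and 3038 CPM with F/R/C+CP. Of the measured genes, 30 of 34 and 31 of 32 were at least 2-fold higher than in quiet cells. The median log2 ratios were 1.81 and 2.25, and 7.63% and 6.56% of all genes were 2-fold higher. Against cycling Myog-low barcodes the medians were -0.21 and -0.37, and 3 of 36 and 0 of 36 genes were 2-fold lower, where 13.7% and 8.57% of all genes were. Slbp, which binds histone mRNA, was lower by log2 ratios of -1.20 (-1.57 to -0.85) and -0.77 (-0.92 to -0.62). Ccne1, the cyclin of S-phase entry, was at 99.5 and 107 CPM in members and at 149 and 189 CPM in cycling Myog-low barcodes, while Uhrf1, which maintains DNA methylation at replication, was at 184 and 89.7 CPM in members and at 136 and 62.2 CPM there. Of the list, 7 of 36 and 5 of 36 measured genes, Uhrf1 among them, were higher than in cycling Myog-low barcodes, and the others were lower. Of all measured genes, 2936 of 6717 and 2745 of 6281 were higher.

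The balance of the 2 lists leaned to mitosis in the members. The G2 and mitosis list took 68.5% (67.8 to 69.2) of the UMIs of both lists in F/R/C members and 66.5% (66.2 to 66.8) in cycling Myog-low barcodes. With F/R/C+CP it took 70.9% (70.5 to 71.2) and 66.8% (66.7 to 66.9). Counted by barcode, 194 of 221 members (87.8%, 82.7 to 91.8) had more mitosis than replication UMIs, against 80.8% (78.5 to 83.0) of cycling Myog-low barcodes. Under F/R/C+CP these shares were 94.2% (243 of 258, 90.6 to 96.7) and 80.0% (78.5 to 81.4). The members' depth was higher, with median UMIs 1.06 and 1.20 times those of cycling Myog-low barcodes, and its part in these shares was not tested.

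Among CDK inhibitors and pocket proteins, which hold the cycle back, Cdkn1c and Rb1 stood near the level of quiet cells. Cdkn1c was at 5716 CPM (5605 to 5829) in the F/R/C members, 6502 CPM in quiet Myog-high and 2029 CPM in cycling Myog-low barcodes. For F/R/C+CP it was at 7537 (7475 to 7599), 9126 and 1820 CPM. The members thus held 2.82-fold and 4.14-fold as much as cycling progenitors, and slightly less than quiet cells (log2 ratio -0.19 and -0.28). Rb1, the retinoblastoma protein gene, was at 246 CPM (223 to 270) in members, 238 CPM in quiet Myog-high and 37.3 CPM in cycling Myog-low barcodes of F/R/C, and at 241 (230 to 252), 253 and 34.1 CPM with F/R/C+CP. Its ratio over quiet cells could not be told from 1 in either library (log2 0.05, -0.13 to 0.23, and -0.07, -0.15 to 0.00). Cdkn1a, the inhibitor p21, lay between the neighbours over all members, at 486 and 459 CPM. Quiet cells had 716 and 498 CPM and cycling progenitors 333 and 286 CPM. At matched Myog of 10 to under 15, 15 to under 25, and 25 and over per 10000, the libraries differed. F/R/C members had 404, 494 and 571 CPM, against 535, 675.5 and 890 CPM in quiet cells. F/R/C+CP members had 401, 499 and 682 CPM against 417, 498 and 627 CPM, so they were not below quiet cells at every level.

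Other inhibitors went with the cycle instead. Rbl1, the pocket protein p107, was at 35.8 and 24.1 CPM in members, 4.86 and 3.04 CPM in quiet cells and 38.8 and 33.6 CPM in cycling Myog-low barcodes. Cdkn2d, an inhibitor of the cyclin D kinases, was at 38.1 and 35.7 CPM, against 6.25 and 10.0 CPM in quiet cells. Cdkn1b, the inhibitor p27, was between 41.2 and 59.1 CPM in all 3 classes and was not separated from quiet cells by its interval (log2 0.11, -0.27 to 0.49, and 0.13, -0.05 to 0.30). Of the whole list, 3 of 8 and 2 of 7 measured genes were 2-fold higher than in quiet cells and 0 were 2-fold lower. Of all genes, 7.63% and 6.56% were 2-fold higher and 4.29% and 1.55% were 2-fold lower.

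Among cyclins and kinases of the G1 phase, 2 of 7 and 2 of 5 measured genes were 2-fold higher than in quiet cells. Of all genes, 7.63% and 6.56% were 2-fold higher. Within this G1 group, Cdk2 was above both neighbours. It encodes the partner kinase of cyclins E and A, and its promoter above holds 2 E2F-type matches and 1 CAGCTG. Cdk2 was at 69.3 CPM (57.6 to 82.8) in the F/R/C members, 25 CPM in quiet Myog-high and 30.6 CPM in cycling Myog-low barcodes, and at 30.3 (26.5 to 34.5), 11.1 and 16.3 CPM with F/R/C+CP. The log2 ratios were 1.47 and 1.45 over quiet cells and 1.18 (0.86 to 1.49) and 0.89 (0.68 to 1.10) over cycling progenitors. Ccnd2, a D-type cyclin, was at 45.5 and 10.7 CPM in members, as in quiet cells (47.9 and 9.86 CPM), and at 123 and 53.4 CPM in cycling Myog-low barcodes. Ccnd3, the D-type cyclin of differentiating muscle, was at 742 and 513 CPM in members and at 836 and 510 CPM in quiet cells. In the list of E2F, DREAM and FoxM1 regulators, 6 of 13 and 3 of 10 measured genes were 2-fold higher than in quiet cells. The medians were 0.81 and 0.80, and 7.63% and 6.56% of all genes were 2-fold higher. E2f8, a repressor E2F, was the 1 gene of that list that was 2-fold higher than in cycling Myog-low barcodes in both libraries (48.3 against 22.8 CPM and 34.8 against 16.3 CPM).

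**Figure D2:**
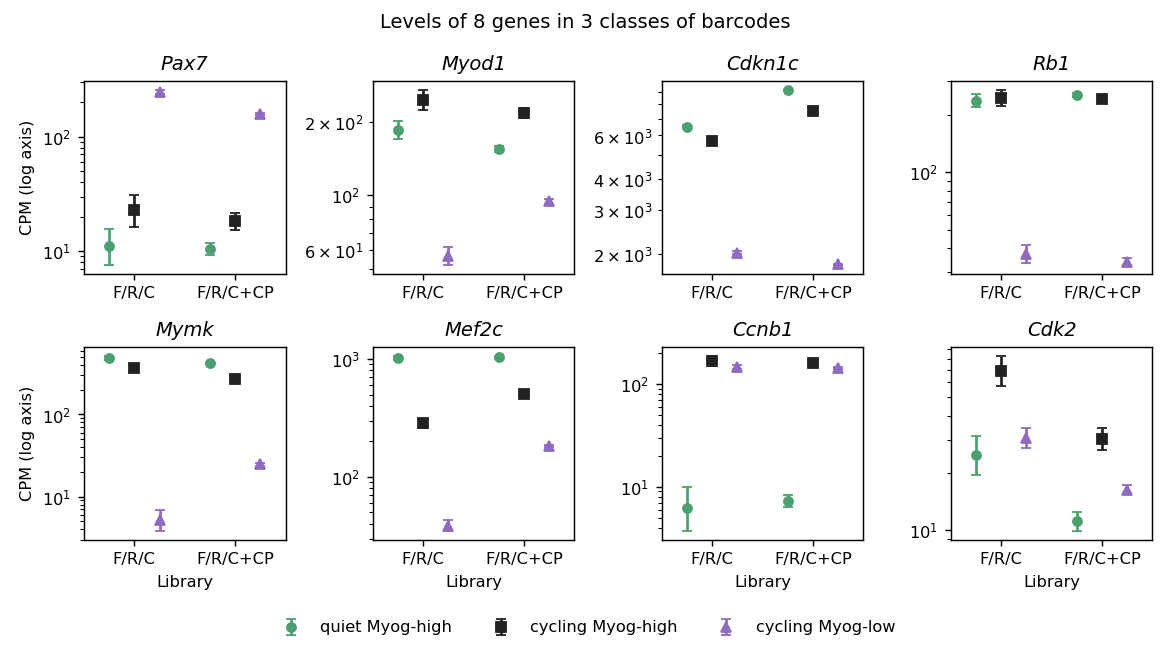
CPM on log axes of 8 genes in quiet Myog-high (circles), cycling Myog-high (squares) and cycling Myog-low barcodes (triangles) of each library, with exact 95% Poisson intervals. Cdkn1c and Rb1 of the members lie near quiet Myog-high cells, Ccnb1 lies near cycling Myog-low cells, and Cdk2 lies above both, at 69.3 and 30.3 CPM.

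Most muscle regulatory factors were above the level of cycling progenitors. Against cycling Myog-low barcodes, 5 of 9 and 5 of 8 measured factors were at least 2-fold higher (median log2 ratio 2.12 and 1.33), where 6.07% and 5.13% of all genes were. Myod1, which encodes the factor supplied as mRNA and acts above Myog, was highest in the members as a whole, at 246 CPM (223 to 270) and 217 CPM (207 to 228). Quiet Myog-high barcodes had 186 and 155 CPM, and cycling Myog-low barcodes 56.7 and 94.5 CPM. The intervals of the members did not overlap either neighbour. At matched Myog levels of 10 to under 15 per 10000, F/R/C members had 253 CPM and quiet Myog-high barcodes 181 CPM, against 208 and 146 CPM with F/R/C+CP. At 15 to under 25 they had 268 and 186 CPM, against 228 and 157 CPM with F/R/C+CP. At 25 and over, however, the F/R/C members had 181 CPM and quiet Myog-high barcodes 189 CPM, against 226 and 166 CPM with F/R/C+CP. Myf5, the early regulator, was at 5.68 and 0.922 CPM in members and at 61.2 and 4.15 CPM in cycling Myog-low barcodes. Rbm24, an RNA-binding protein of differentiating muscle, was at 498 and 482 CPM in members, close to the 570 and 526 CPM of quiet cells. Mef2c, a partner factor of Myog in late differentiation, was below the level of quiet cells, at 286 and 503 CPM against 1026 and 1032 CPM. Tead4 likewise stood at 61.4 and 73.3 CPM against 125 and 114 CPM.

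The fusion genes Mymk and Mymx were expressed. Mymk (myomaker), a membrane protein required for myoblast fusion, was at 366 CPM (338 to 395) in the F/R/C members, 490 CPM in quiet Myog-high and 5.18 CPM in cycling Myog-low barcodes, and at 271 (259 to 283), 421 and 24.7 CPM with F/R/C+CP. Mymx (myomixer), its partner, was at 207 and 206 CPM in members, 319 and 357 CPM in quiet cells and 6.15 and 14.5 CPM in cycling progenitors. Both genes were thus far above the progenitors and, over all barcodes of each class, below the quiet cells. At a matched Myog of 25 and over per 10000 with F/R/C+CP, however, Mymk was at 547 CPM in 18 members and 543 CPM in quiet cells. At the lower matched levels, and at every level in F/R/C, members had less Mymk than quiet cells. The fusion list as a whole, mostly adhesion and signalling genes, did not follow Mymk and Mymx. Its medians were -0.38 and -0.10 against quiet cells and -0.39 and -0.11 against cycling progenitors, and 3 of 12 and 3 of 11 measured genes were 2-fold higher than in the latter and 4 and 2 were 2-fold lower. Of all genes in that contrast, 6.07% and 5.13% were 2-fold higher and 13.7% and 8.57% 2-fold lower.

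Contractile genes were lower than in quiet Myog-high cells. Of the sarcomere genes measured, 19 of 29 in F/R/C and 4 of 38 with F/R/C+CP were at least 2-fold lower than in quiet Myog-high barcodes, against 4.29% and 1.55% of all genes, and 0 were 2-fold higher (medians -1.33 and -0.65). Acta1, itself a sarcomere gene, was part of the rule and is not in this list. Ttn, the giant spring of the sarcomere, was at 579 and 955 CPM in members, 1442 and 1806 CPM in quiet cells and 47.9 and 455 CPM in cycling progenitors. Myh3, embryonic myosin, was at 69.9 and 326 CPM against 264 and 646 CPM in quiet cells. Actc1, the cardiac actin made early in skeletal muscle, was nearer to quiet cells, at 2028 and 3244 CPM against 2664 and 4334 CPM. Against cycling Myog-low barcodes 20 of 25 and 13 of 35 sarcomere genes were at least 2-fold higher (medians 2.38 and 0.69), against 6.07% and 5.13% of all genes. Cycling Myog-low barcodes of F/R/C+CP carried more contractile transcripts than those of F/R/C, as for Ttn, with Acta1 at 728 against 80.4 CPM, and the part of free muscle RNA in the smaller ratios was not tested.

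Excitation-contraction and synaptic genes went the same way. Of the genes of excitation-contraction coupling and creatine metabolism, 8 of 16 and 2 of 18 were 2-fold lower than in quiet cells, with none 2-fold higher (medians -1.06 and -0.57), where 4.29% and 1.55% of all genes were 2-fold lower. Stac3, a coupling protein of the calcium channel, was at 12.5 and 20.8 CPM against 46.5 and 50.2 CPM. In the acetylcholine receptor and synapse list 2 of 6 and 1 of 7 genes were 2-fold lower (medians -0.87 and -0.50), small counts to set against the same shares of all genes. Musk, the receptor kinase of the synapse, was at 13.1 and 31.3 CPM against 34.4 and 63.2 CPM. Dok7, which activates Musk, was an exception at 54.6 and 44.1 CPM, close to the 65.6 and 46.2 CPM of quiet cells and above the 1.94 and 5.01 CPM of cycling progenitors.

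Chromatin genes of dividing cells stood near the level of cycling progenitors. All 27 genes of that list were higher than in quiet cells in both libraries. Of them, 19 and 18 were at least 2-fold higher (medians 1.62 and 1.27). Of all measured genes, 3519 of 6134 and 3221 of 5760 were higher, and 7.63% and 6.56% were 2-fold higher. The rule's cycling genes set these classes apart, so these counts are not independent of the choice of members. Against cycling Myog-low barcodes the medians were -0.03 and -0.11. H2az1, the histone variant H2A.Z, was at 2056 and 2078 CPM in members and at 671 and 697 CPM in quiet cells. Ezh2, the Polycomb methyltransferase, was at 195 and 219 CPM against 47.9 and 45.4 CPM. Dnmt1, the maintenance DNA methyltransferase, was at 139 and 120 CPM against 30.9 and 20.8 CPM.

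Pax7 and several Notch genes were low in the members. Pax7, the transcription factor of satellite cells, was at 22.7 CPM (16.2 to 31.0) in the F/R/C members, 11.1 CPM in quiet Myog-high and 247 CPM in cycling Myog-low barcodes, and at 18.3 (15.4 to 21.6), 10.4 and 157 CPM with F/R/C+CP. The members thus held more Pax7 than quiet cells (log2 1.03, 0.33 to 1.75, and 0.81, 0.51 to 1.11) and far less than the progenitors (log2 -3.44 and -3.10). Of the progenitor and Notch list, 13 of 26 and 9 of 23 measured genes were at least 2-fold lower than in cycling Myog-low barcodes (medians -0.97 and -0.53), where 13.7% and 8.57% of all genes were. Heyl, a Notch target, was at 7.96 and 9.35 CPM against 111 and 78.2 CPM, and Notch3 at 9.66 and 15.3 CPM against 167 and 111 CPM. Msc, a repressor of Myod1 activity, was at 6.25 and 3.29 CPM against 102 and 22.5 CPM.

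Some genes of this list kept an intermediate level. Notch1, a receptor, was at 92.6 and 47.4 CPM in members, 42.7 and 23.3 CPM in quiet cells and 155 and 68.6 CPM in cycling progenitors. Id2, an inhibitor of bHLH factors such as Myod1, was at 113 and 47.1 CPM, against 53.1 and 15.7 CPM in quiet cells and 175 and 86.0 CPM in progenitors. Dll1, the Notch ligand, was on the side of the quiet cells, at 71.6 and 39.1 CPM against 67.7 and 31.3 CPM there and 6.05 and 7.20 CPM in cycling progenitors. The members therefore held this ligand near the level of quiet cells and the receptor Notch1 between the neighbours. The receptor Notch3 was at 9.66 CPM in F/R/C members, against 4.51 CPM in quiet cells and 167 CPM in cycling progenitors. Immediate early genes of the AP-1 and Egr families were lower than in cycling Myog-low barcodes for 13 of 17 genes in F/R/C and 2 of 9 with F/R/C+CP by at least 2-fold, and targets of p53 for 5 of 12 and 3 of 10, against 13.7% and 8.57% of all genes in this contrast.

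**Figure D3:**
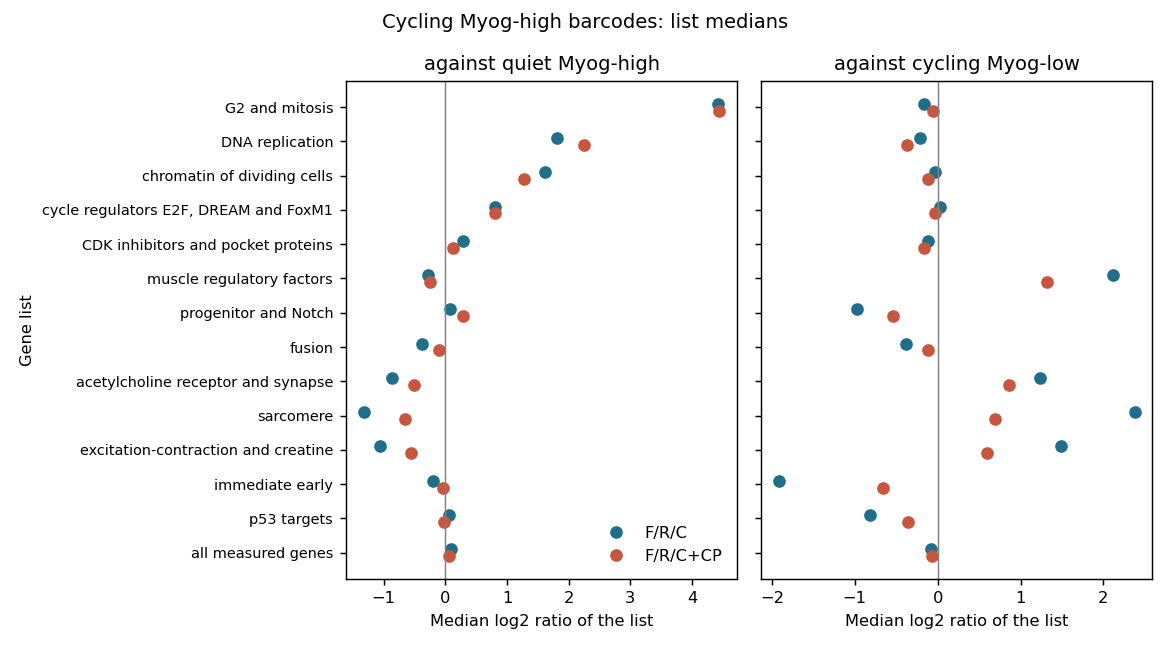
Median log2 ratio of each gene list (y axis) in cycling Myog-high barcodes against quiet Myog-high (left) and against cycling Myog-low barcodes (right), for both libraries, with the median of all measured genes at the bottom. The G2 and mitosis list lies at 4.42 and 4.44 on the left and at -0.17 and -0.06 on the right, and the sarcomere list at -1.33 and -0.65 on the left and at 2.38 and 0.69 on the right.

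Genes were then placed between the neighbours, with the level of quiet Myog-high barcodes set at 0% and that of cycling Myog-low barcodes at 100%. Progenitor-side genes, at least 4-fold higher in quiet Myog-low than in quiet Myog-high barcodes, were chosen without use of the members, though they share the quiet Myog-high barcodes with the scale. Their median place was 4.60% (quartiles -2.24 and 14.1) over 623 genes in F/R/C and 8.47% (2.58 and 18.5) over 447 genes with F/R/C+CP. The G2 and mitosis list had medians of 88.3% and 95.3%, and the replication list of 82.7% and 73.0%. The members and the cycling Myog-low barcodes were cut at the same cycling sum, with the rule's cycling genes at 3167 and 3142 CPM in F/R/C and at 2938 and 2888 CPM with F/R/C+CP, so a place of the cycle lists near 100% follows from the rule. Genes of the Myog-high side, 4-fold higher in quiet Myog-high than in quiet Myog-low barcodes, had medians of 47.1% (258 genes) and 41.3% (164 genes).

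**Figure D4:**
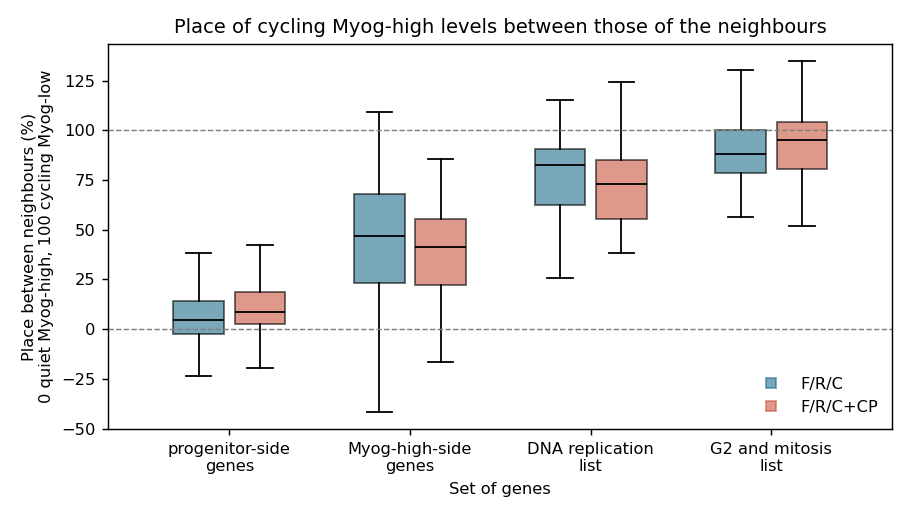
Place of the members' CPM between quiet Myog-high (0%) and cycling Myog-low barcodes (100%) for 4 sets of genes, as medians, quartiles and whiskers to 1.5 times the quartile range, per library. Progenitor-side genes have medians of 4.60% and 8.47%, Myog-high-side genes 47.1% and 41.3%, replication genes 82.7% and 73.0%, and mitosis genes 88.3% and 95.3%.

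A doublet of a quiet Myog-high and a cycling progenitor cell could also meet the rule, so depth and Pax7 were compared between the classes. Members had a median of 8499 UMIs in F/R/C, against 7508 for quiet Myog-high and 7983.5 for cycling Myog-low barcodes, which is 1.13 and 1.06 times as many. With F/R/C+CP the medians were 28202.5, 23322 and 23483.5 UMIs (1.21 and 1.20 times). The neighbours' medians sum to 15491.5 and 46805.5 UMIs, and the members' median depth was slightly raised and under that sum. The limit on detected genes also bounded depth, and the deepest members had 15227 and 57900 UMIs. It left out 11 and 10 barcodes that met the rule, so the depth of kept members cannot decide on doublets. With each barcode thinned to 2000 UMIs, a Pax7 UMI was present in 3.13% of members (6 of 192, 1.16 to 6.68) in F/R/C and in 3.49% (9 of 258, 1.61 to 6.52) with F/R/C+CP. Quiet Myog-high barcodes had 2.77% and 1.68%, and cycling Myog-low barcodes 39.7% and 24.7%. Acta1-high barcodes (Acta1 of at least 100 per 10000, median 7331 and 41187 UMIs), which should lack Pax7, had 1.10% (0.134 to 3.93) and 1.54% (0.881 to 2.48). The members' thinned intervals overlap these, so the share was not separated from background at 2000 UMIs, while their full Pax7 level of 22.7 and 18.3 CPM was above the 8.91 and 6.32 CPM of Acta1-high barcodes. Unthinned, the shares were 14.0% and 24.0% in members and 4.65% and 16.3% in Acta1-high barcodes.

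Doublet scores differed between the libraries. Scrublet, which scores barcodes against simulated mixtures, called 0 of 221 members in F/R/C, where it marked 4 of 3962 barcodes in all (0.101%) against an expected 4.43%, too few for its calls to be used. Under F/R/C+CP it called 31 members (12%), against 2.91% of quiet Myog-high and 1.37% of cycling Myog-low barcodes. Among the highest scores, at the expected rate, were 7 members (3.17%) in F/R/C and 49 (19.0%) with F/R/C+CP. Without these barcodes 214 and 209 members remained, the cycling share of Myog-high barcodes was 33.6% and 15.2%, the median place of the progenitor-side genes was 3.18% and 4.14%, and the thinned Pax7 share was 3.24% and 2.87%. The part of doublets among the remaining members was not tested.

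**Figure D5:**
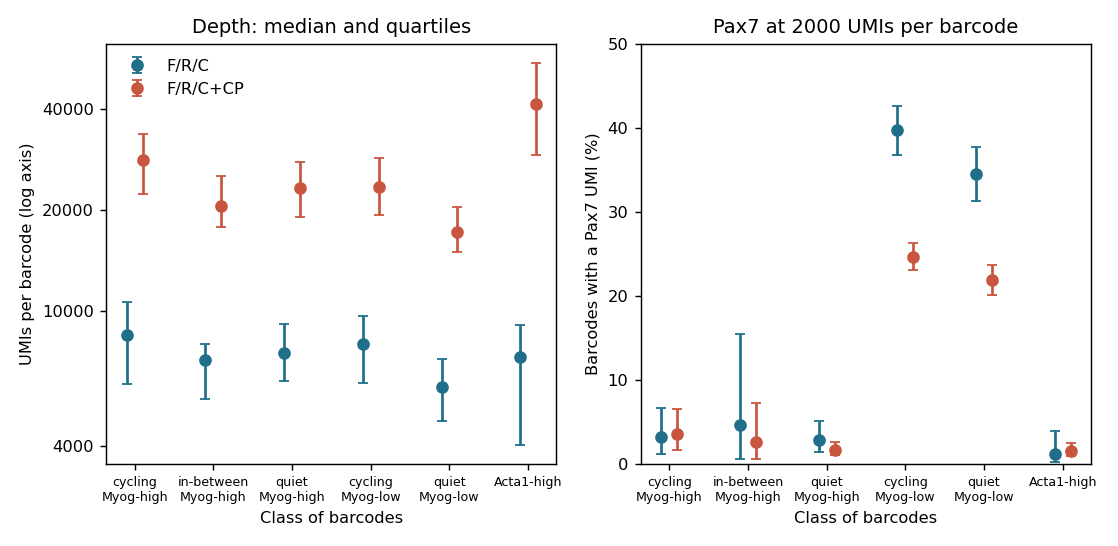
UMIs per barcode on a log axis (left, median and quartiles) and the percentage of barcodes with a Pax7 UMI after thinning to 2000 UMIs (right, exact 95% intervals) in 6 classes of each library. Members have medians of 8499 and 28202.5 UMIs, and their Pax7 shares of 3.13% and 3.49% lie with the other Myog-high and the Acta1-high classes.

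Within the members, the muscle programme followed Myog. F/R/C members at a Myog of 10 to under 15 per 10000 (56 barcodes) had 5075 CPM of the sarcomere list, those at 15 to under 25 (109) had 6189 CPM and those at 25 and over (56) had 8772 CPM. For F/R/C+CP (138, 102 and 18 members) the sums were 14047, 17305 and 21622 CPM. Mymk went from 247 to 371 to 500.2 CPM and from 192 to 329 to 547 CPM. Pax7 went from 41.5 to 19.3 to 8.11 CPM and from 24.3 to 11.8 to 9.80 CPM, and quiet Myog-high barcodes of the same Myog levels had 34.6, 6.25 and 2.07 CPM and 21.6, 6.25 and 2.83 CPM. The replication list went from 3543 to 2903 to 1871 CPM and from 2613 to 2365 to 2132 CPM, while the G2 and mitosis list was at 5887, 6458 and 5927 CPM and at 5837, 6138 and 6989 CPM. Members with the most Myog thus held fewer replication transcripts than members with the least. Mitotic transcripts were no fewer, but every member had to reach the same cycling sum, so their level is bound by the rule. Cdkn1a went from 404 to 494 to 571 CPM and from 401 to 499 to 682 CPM. In quiet Myog-high barcodes of these levels the replication list also fell, from 1288 to 965 to 520 CPM and from 773 to 488 to 332 CPM. Their G2 and mitosis list, with the cycling sum held under 5, fell from 568 to 474 to 423 CPM and from 602 to 481 to 371 CPM. Their sarcomere list rose from 9741 to 14282 CPM and from 20458 to 26711 CPM. Their Mymk rose from 318 to 604 CPM and from 290 to 543 CPM, and Cdkn1a from 535 to 890 CPM and from 417 to 627 CPM. The trends of the replication and sarcomere lists, Mymk, Cdkn1a and Pax7 were therefore not particular to the members.

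Few genes lay at least 1.5-fold outside the range of the neighbours in both libraries. Of 5227 genes measured in both contrasts and both libraries, 5 were at least 1.5-fold above both neighbours in both libraries (0.0957%) and 14 at least 1.5-fold below both (0.268%). The 5 were Cdk2, Fxyd6, a modulator of the sodium pump, Psat1 and Mthfd2, enzymes of serine synthesis and of mitochondrial one-carbon metabolism, and Pradc1. Psat1 was at 270 and 168 CPM in members, 124 and 97.5 CPM in quiet cells and 147 and 96.3 CPM in cycling progenitors. Mthfd2 was at 125 and 145 CPM, 48.3 and 51.3 CPM and 79.9 and 69.0 CPM. Below both neighbours lay Vgll3, a cofactor of TEAD factors, at 37.5 and 37.9 CPM against 77.4 and 75 CPM in quiet cells and 92.7 and 77.3 CPM in cycling progenitors, and Pdcd4, an inhibitor of translation, at 18.2 and 20.4 CPM against 40.3 and 46.1 CPM and 34.1 and 42.2 CPM. Ankrd12, Sec24d, Camkmt, Egln3, Ebpl, Sqstm1, Lhfp and Psmb10 were the next genes below both, of which Lhfp in F/R/C had an interval that included 0 against quiet cells (log2 -0.61, -1.27 to 0.02).

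Across all genes, the named ones were those with the largest ratios. Those furthest below quiet Myog-high cells in both libraries were Nckap5, Chrm3, Prr16, Cck, Maged2, Ppara, Tmem200a, Kdm5b, Klf5 and Tmem178b. Chrm3, a muscarinic acetylcholine receptor, was at 30.7 and 10.5 CPM in members and at 127 and 58.8 CPM in quiet cells. Kdm5b, a histone H3K4 demethylase, was at 17.0 and 29.2 CPM against 77.1 and 88.3 CPM. Those furthest above cycling Myog-low cells were Myo16, Tmem178b, Spon1, Fstl4, Lef1, Elmo1, Tmem200a, Dbh, Mymx and Frmd4b. Lef1, a transcription factor of the Wnt pathway, was at 170 and 105 CPM in members, 212 and 132 CPM in quiet cells and 7.99 and 4.51 CPM in cycling progenitors. Tmem178b and Tmem200a are in both groups, so they were expressed in the members at a fraction of the level of quiet cells, with Tmem178b at 99.5 and 23.3 CPM against 290 and 111 CPM. Furthest below cycling Myog-low cells were St6galnac3, Camk2n1, Fap, Pde8b, Robo2, Nrg1 (1 of the features that share this symbol), Csgalnact1, Lin7a, Gria3 and Nrp1. Fap, a surface protease of mesenchymal cells, was at 2.27 and 8.43 CPM against 52.3 and 87.2 CPM.

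Markers of other cell types, apart from the smooth muscle and pericyte list, were low in the members. The 10 connective tissue markers summed to 31.3 and 32.0 CPM, with 7 of 10 detected in each library, against 26.4 and 19.8 CPM in quiet Myog-high and 249 and 141 CPM in cycling Myog-low barcodes. Melanocyte markers summed to 5.11 and 6.45 CPM (2 and 6 of 8 detected), immune markers to 2.84 and 2.11 CPM (2 and 3 of 8) and endothelial markers to 1.70 and 0.790 CPM (1 and 2 of 6). Schwann and neural markers summed to 27.3 and 10.3 CPM (4 and 8 of 8). Quiet Myog-high barcodes had 17.0 and 10.5 CPM of them, and cycling Myog-low barcodes 58.7 and 20.4 CPM. Smooth muscle and pericyte markers, of which some such as Des are made by muscle cells, summed to 1033 and 1494 CPM. Quiet Myog-high barcodes had 1517 and 1853 CPM, and cycling Myog-low barcodes 973 and 1210 CPM. Mitochondrial transcripts took a median of 8.74% and 5.31% of a member's UMIs, against 9.44% and 5.77% in quiet Myog-high barcodes.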

How the data were processed

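The authors deposited raw counts of UMIs by gene and barcode, made in Cell Ranger 7.0.0 against GRCm39 (10x 3' chemistry, 1 library per clone, target 5000 cells). STARsolo and Seurat 4.2.1 appear in the submitters' processing notes. The methods describe a free-RNA correction of F/R/C+CP, whereas its deposited counts are whole numbers, and no source used here says whether they are corrected. Kept barcodes had 250 to 4000 (F/R/C) or 250 to 7000 (F/R/C+CP) genes with a count, with mitochondrial counts up to 15% and ribosomal protein counts up to 40%. The files give no annotation, so classes are defined by thresholds on single genes, and no cell was removed as a doublet.

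CPM are the summed counts of a class over its total. A gene was measured with at least 10 counts over both classes and 20 CPM in 1 of them. Called means past 2-fold. No test was run, as each group is 1 library. Intervals are exact Poisson, conditional binomial or Clopper-Pearson ones at 95%, and the floor for a count of 0 is 3 counts. Beside the listed genes, the text names the 10 genes furthest each way in each contrast by the smaller of the 2 libraries' ratios, and the genes at least 1.5-fold outside both neighbours, up to 10 each way. Members, lists and thresholds were chosen with earlier results of these data known. Features that share a symbol (46) were kept apart. Scrublet ran in scanpy 1.11.5 at 0.8% expected per 1000 barcodes, with Python 3.11.15, scipy 1.17.1 and the seed 1. The contrast was checked on simulated counts. Alternative thresholds, filters, depths and scalings were tried. Promoters of Tpx2, Cdkn1c, Rb1, Mymk, Mymx and Aurkb were not used here.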

Additional observations from a re-analysis of the deposited data

Results flagged for a closer look

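Chrnd, the delta subunit of the muscle acetylcholine receptor, went opposite ways in the libraries against cycling Myog-low barcodes, with log2 ratios of -0.73 (-1.16 to -0.33) in F/R/C and 0.80 (0.62 to 0.97) with F/R/C+CP. It was at 31.3 and 42.0 CPM in the members and at 51.9 and 24.2 CPM in cycling Myog-low barcodes. The same held for 7 other listed genes against these barcodes, given as log2 ratios in F/R/C and then with F/R/C+CP. Actn3, a fast-fiber actinin, had -0.81 and 0.17. Cdh15, the muscle cadherin, had -0.69 and 0.19. Dag1, dystroglycan, had -0.33 and 0.30. Des, desmin, had -0.38 and 0.10. Dusp6, a phosphatase of ERK, had -0.36 and 0.54. Hmgb1, a chromatin protein, had 0.13 and -0.031. Tubb4b, a tubulin, had -0.12 and 0.15. Against quiet Myog-high barcodes Jund, an AP-1 subunit, had -0.44 and 0.15. All these intervals left out 0, and the differences between the libraries were not tested.

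Barcodes that the quality filter left out also met the rule, at 27 of 1579 in F/R/C (1.71%, 1.13 to 2.48) and 12 of 1166 with F/R/C+CP (1.03%, 0.533 to 1.79), above the 0.190% and 0.257% that a count of 0 allows. Of these, 11 and 10 were over the limit on detected genes and 15 and 2 over the mitochondrial limit.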

How the results depend on the processing

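No called value changed direction. Of 4157 gene ratios under alternatives, 3621 stayed within their main interval and 536 moved, and of 715 list medians 7 moved. Of 198 other values, such as shares of barcodes and counts of genes, 46 moved. No ratio was formed where both classes were at or under 3 counts, as for Pax7 among barcodes without a Pax7 UMI. The cycling share of Myog-high barcodes in F/R/C moved only with a cycling sum of at least 20 per 10000 (23.3%). With F/R/C+CP it was 11.1% with that sum, 9.75% with Myog of at least 20, 20.7% with Acta1 under 10, 15.2% without the highest doublet scores and 19.9% at 4000 UMIs. Unthinned, the Pax7 share was 14.0% and 24.0%. Counts of genes past 2-fold depended on the CPM minimum. Higher and lower than quiet Myog-high and then higher and lower than cycling Myog-low, they were 468, 263, 408 and 919 in F/R/C and 378, 89, 322 and 538 with F/R/C+CP. Without a minimum they were 925, 822, 817 and 2557, and 1138, 833, 1137 and 2804. At 50 CPM they were 213, 143, 265 and 431, and 172, 53, 203 and 244. In F/R/C+CP, 919 genes were 2-fold lower than in cycling Myog-low with Myog of at least 20, and 151 lower than in quiet Myog-high with a sum of at least 20. The median place of progenitor-side genes ranged from 3.18% to 6.23% in F/R/C and from 3.47%, without barcodes with a Pax7 UMI, to 12.6%, at 4000 UMIs, with F/R/C+CP. The cause of these shifts was not tested. No paired analysis was possible because each group has 1 library.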
